A study of Mus musculus with 16 samples.

Results

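Isolated Myc-only H3K27me3 peaks are peaks that the authors called for H3K27me3 in Myc-ESCs and that lie away from the LIF-ESC H3K27me3 peaks and from all H3K4me3 and Suz12 peaks of the study. They were chosen by peak position in the 6 deposited lists: no LIF-ESC H3K27me3 peak within 1000 bp, no H3K4me3 peak of either culture within 1000 bp and no Suz12 peak of either culture within 10000 bp. The rule found 2254 of the 16717 Myc-ESC H3K27me3 peaks, or 13.5% (95% Wilson interval 13.0 to 14.0%). Of all Myc-ESC H3K27me3 peaks, 12457 had no LIF-ESC H3K27me3 peak within 1000 bp, which is 74.5%, and the isolated peaks made up 18.1% of these. Both numbers follow from the rule and describe the selection.

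The cells were R1 mouse ESCs, an established embryonic stem cell line, in a clone carrying MycER, a fusion of mutant Myc with an estrogen receptor domain that needs the ligand 4-hydroxytamoxifen (OHT) to act. LIF-ESCs were this same clone, kept in 100 units/ml of LIF without OHT. Myc-ESCs were the clone kept in 50 nM OHT without LIF. Both cultures came from 1 clone, so traits of that clone and of the line cannot be told apart. The 16 libraries comprised 2 for each culture and antibody and 4 inputs, but each culture and antibody has 1 peak list, so no value can be set against replicate error and no test was run.

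H3K27me3 is the histone mark laid down by Polycomb repressive complex PRC2, whose core subunit Suz12 is needed for its methyltransferase activity. In embryonic stem cells the mark is best known at CpG-rich promoters of silent developmental genes, where Suz12 binds and where H3K4me3 is often present as well, a state called bivalent. H3K27me3 also spreads at lower density over intergenic and gene-body chromatin, and it takes part in silencing at some imprinted domains.

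Sequences of individual peaks show what kind of DNA the calls fell on. Each is printed 5′ to 3′ on the plus strand of GRCm38. In the first 6, capitals mark bases covered by no repeated 31-mer, that is, by no stretch of 31 bases found more than once on the 21 chromosomes on either strand, and lower case marks the repeated bases. The highest-scoring peak of at most 300 bp outside genes was chr5:96846886-96847118 (score 199), a GC-rich run of CTC and CTG triplets in which every 31-mer was repeated. The highest in an intron was chr8:14343631-14343870 in Dlgap2 (score 129), and the highest in an exon outside messenger RNA exons was chr8:71167548-71167721 (score 77.2), in the noncoding RNA Gm38415. The peak nearest the median score was chr1:81078063-81078190 in an intron of Nyap2 (score 58.3), with no repeated 31-mer. The last 2 are the highest-scoring peaks of at most 300 bp in the 2 largest clusters, chr7:38810059-38810219 in 1700010N08Rik (score 87.6) and chr8:55381904-55382085 (score 89.4).
Outside genes: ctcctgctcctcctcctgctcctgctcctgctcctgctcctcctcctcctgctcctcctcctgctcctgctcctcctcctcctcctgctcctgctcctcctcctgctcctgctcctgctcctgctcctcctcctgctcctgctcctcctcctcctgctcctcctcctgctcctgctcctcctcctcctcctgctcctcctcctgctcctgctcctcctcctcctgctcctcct
Dlgap2 intron: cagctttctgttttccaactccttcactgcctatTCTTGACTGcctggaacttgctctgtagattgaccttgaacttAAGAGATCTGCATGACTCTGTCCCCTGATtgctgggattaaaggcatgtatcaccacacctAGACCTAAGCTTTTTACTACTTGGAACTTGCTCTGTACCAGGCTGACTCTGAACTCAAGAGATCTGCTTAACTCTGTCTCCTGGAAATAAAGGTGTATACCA
Gm38415 exon: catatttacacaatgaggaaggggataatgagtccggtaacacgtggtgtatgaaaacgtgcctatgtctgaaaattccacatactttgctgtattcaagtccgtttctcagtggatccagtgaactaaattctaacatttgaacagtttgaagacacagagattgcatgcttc
Nyap2 intron: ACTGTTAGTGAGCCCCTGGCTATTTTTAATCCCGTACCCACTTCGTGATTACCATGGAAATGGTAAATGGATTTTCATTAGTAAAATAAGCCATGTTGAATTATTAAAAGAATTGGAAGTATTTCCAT
Largest cluster: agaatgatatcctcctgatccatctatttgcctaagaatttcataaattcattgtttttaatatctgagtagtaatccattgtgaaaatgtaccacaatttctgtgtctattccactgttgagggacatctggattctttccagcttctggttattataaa
Second cluster: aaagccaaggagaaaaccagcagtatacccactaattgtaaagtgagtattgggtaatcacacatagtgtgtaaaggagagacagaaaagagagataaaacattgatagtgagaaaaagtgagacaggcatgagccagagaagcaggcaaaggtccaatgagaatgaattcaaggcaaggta
Only the Nyap2 peak, of 128 bases, consisted wholly of single-copy sequence. The Dlgap2 peak held 140 such bases of 240, and the other 4 held 0.

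The isolated peaks were weak calls. Their median score was 58.3 (quartiles 54.4 to 65.6), against 64.8 for the 9806 Myc-only peaks with Suz12 within 10000 bp and 81.9 for the 4260 Myc-ESC peaks with a LIF-ESC H3K27me3 peak within 1000 bp. The score is 10 times the negative log10 of the caller's p-value, and the lists begin at 50. A score of at least 100 was reached by 79 isolated peaks, or 3.50% (2.82 to 4.35%), against 16.9% (16.2 to 17.7%) of the Myc-only peaks near Suz12 and 38.1% (36.6 to 39.5%) of the peaks called in both cultures. They were also short, with a median of 147 bp (quartiles 135 to 165) against 160 and 203 bp. Together they covered 0.381 Mb. The highest score, 309, was at chr1:85489363-85490649, whereas the highest among peaks called in both cultures was 3120.

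**Figure D1:**
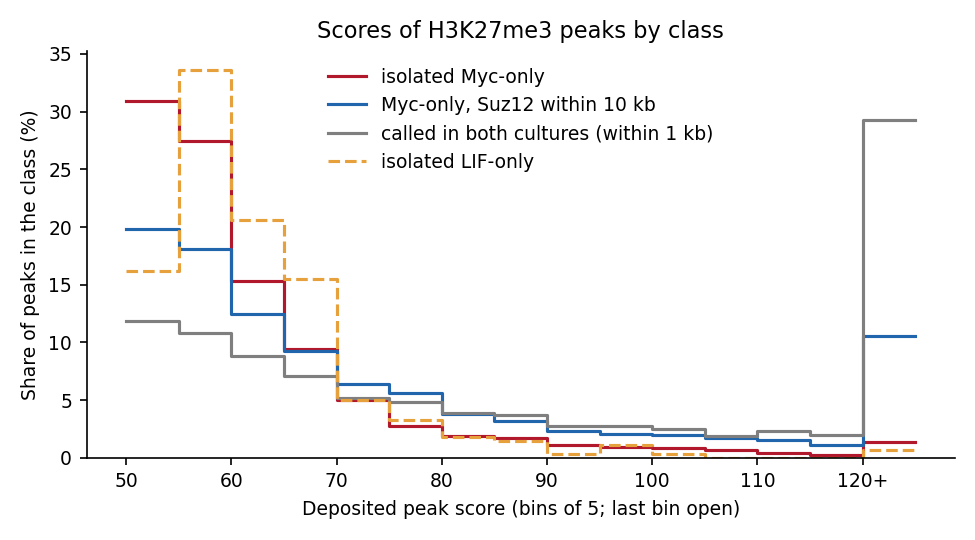
Share of peaks (y axis, percent of the class) by deposited score (x axis, bins of 5, the last bin holding 120 and above) for 4 classes of H3K27me3 peaks. Isolated Myc-only peaks crowd at the lower end, with a median of 58.3, and few reach 100, as do the isolated LIF-only peaks (median 60.2).

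The scores also fell on discrete lines that gave the number of reads behind a call. With 1 background rate for the whole list, the score of a peak of a given length matched the Poisson probability of more than N reads, on the same log scale and for whole N, to within 0.011 in 1433 of the 2254 isolated peaks (63.6%, 61.6 to 65.5%). Only 1.17% of all Myc-ESC H3K27me3 peaks missed such a line by more than 0.011 and less than 0.1. The fitted rate was 5.97 reads per kb. For example, all 41 isolated peaks of 147 bp on the line for N = 7 scored 53.96, and the 7 on the line for N = 8 scored 64.11. If the caller's tail holds N itself, each count is 1 read higher. MACS scores a peak against the larger of the genome-wide and the local background, and the read numbers of the 821 peaks off the lines could not be recovered.

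Among the 1433 isolated peaks on a line, 910 (63.5%, 61.0 to 66.0%) rested on at most 7 reads, 285 on 8 and 108 on 9, and 130 (9.07%) on 10 or more. The largest number was 27. Of the Myc-only peaks near Suz12 that fell on a line, 39.5% (38.4 to 40.7%) rested on at most 7 reads, and 1993 of 6436 on 10 or more. For peaks called in both cultures these shares were 26.2% (24.4 to 28.2%) and 49.0%. The lines of the LIF-ESC list followed a rate of 6.90 reads per kb, 1.16 times that of the Myc-ESC list. At that rate and unchanged length and read number, 356 of the 1433 isolated peaks (24.8%, 22.7 to 27.1%) would have scored under 50, against 16.9% (16.0 to 17.8%) of the Myc-only peaks near Suz12. Read numbers were held fixed here, although they could change with the rate, so these shares rescore the calls and do not count calls lost in LIF-ESCs. The part that the difference in rate between the lists had in the Myc-only calls was not tested.

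**Figure D2:**
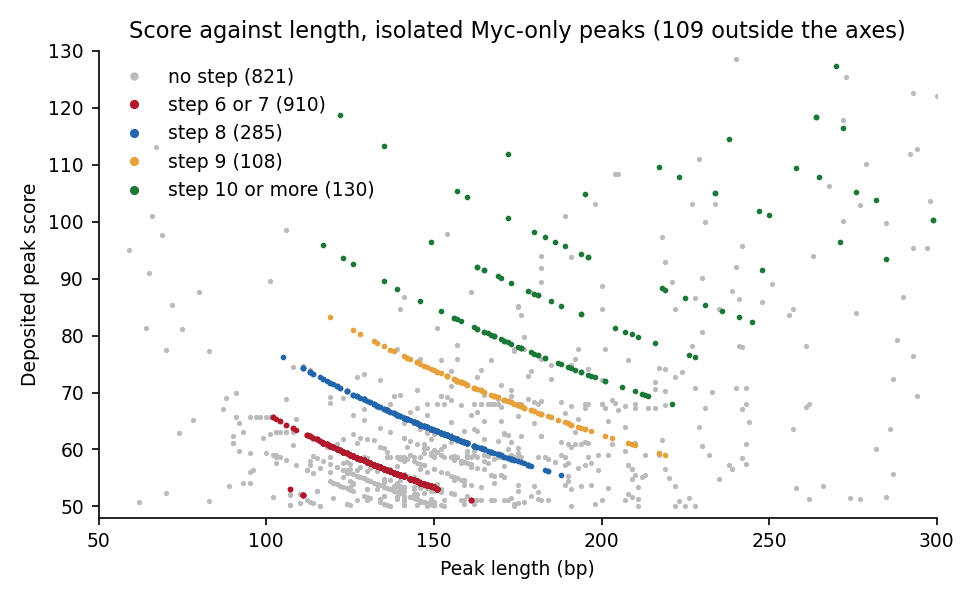
Deposited score (y axis) against peak length (x axis, bp) for the isolated Myc-only peaks, one point per peak, coloured by the whole read number N whose line it lies on (step in the key). The 910 peaks at N of 6 or 7 form the lowest long curve, the 285 at 8 and the 108 at 9 lie above it, and 821 grey peaks fall on no line.

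More than 50% of the isolated peaks lay on repeated DNA. In 1201 of 2254 (53.3%, 51.2 to 55.3%) more than 50% of the 31-mers occurred more than once in GRCm38, and in 776 (34.4%, 32.5 to 36.4%) all did. The share was 6.86% (6.38 to 7.38%) among Myc-only peaks near Suz12, 17.7% (16.6 to 18.9%) among peaks called in both cultures and 18.2% (17.8 to 18.7%) among 26476 windows of 162 bp placed every 100000 bp along the assembly. Soft-masked sequence, which the reference marks as interspersed or simple repeats, filled more than 50% of 1033 isolated peaks (45.8%, 43.8 to 47.9%), against 9.88% of the Myc-only peaks near Suz12 and 30.6% of the windows. The reads had been kept only at a unique best match, and how that filter acted at repeated sequence was not tested.

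The repeated share did not fall with the score. It was 50.8% (48.1 to 53.5%) for the 1316 isolated peaks scoring from 50 to 60, 54.6% for the 733 from 60 to 80, 68.3% (59.7 to 75.7%) for the 126 from 80 to 100 and 59.5% (48.5 to 69.6%) for the 79 at 100 or above. Near Suz12, the share in the same 4 ranges lay between 5.51 and 10.6%. Read numbers did not separate the repeated peaks from the rest: on the lines, 63.8% (60.1 to 67.4%) of the repeated and 63.2% (59.8 to 66.5%) of the other isolated peaks rested on at most 7 reads. The repeated peaks fell on a line less often, with 54.1% (51.3 to 56.9%) against 74.4% (71.6 to 76.9%), which left more of their read numbers unknown.

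In base composition the isolated peaks were AT-rich and poor in CpG. Their median GC content was 38.0%, against 44.4% for Myc-only peaks near Suz12, 44.3% for peaks called in both cultures and 41.4% for the windows. The observed number of CpG dinucleotides over that expected from base content had a median of 0.123, against 0.222 near Suz12 and 0.142 in the windows. No CpG at all was present in 1009 isolated peaks (44.8%, 42.7 to 46.8%), against 21.7% (20.9 to 22.5%) of those near Suz12. The median GC content was 38.1% in the repeated and 37.6% in the other isolated peaks.

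**Figure D3:**
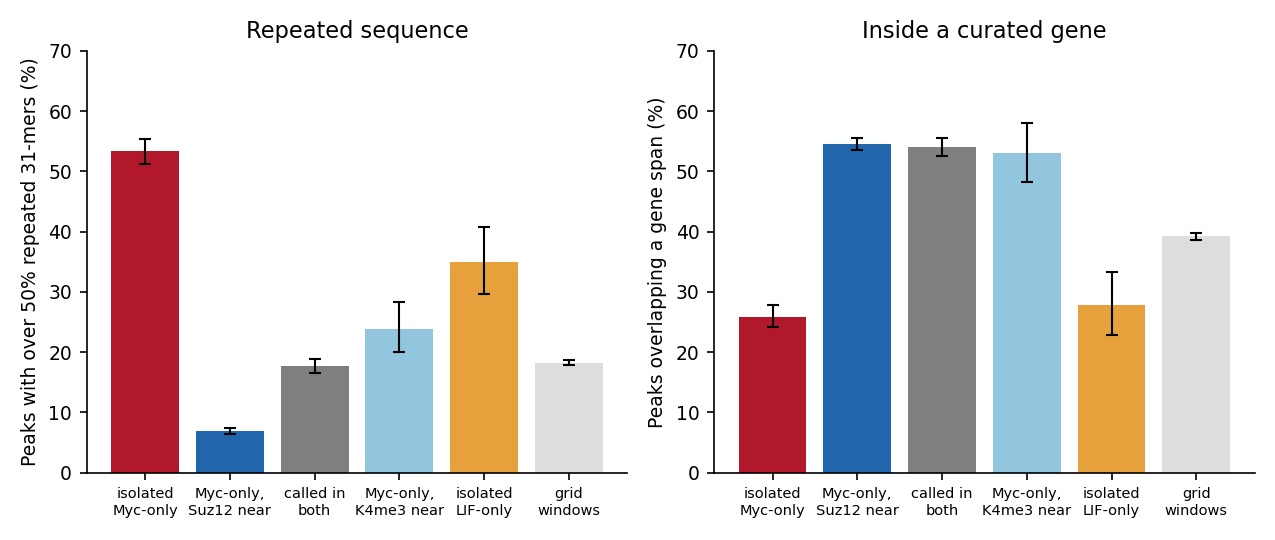
Left, share of peaks with over 50% repeated 31-mers, and right, share of peaks overlapping a curated RefSeq gene span (y axes, percent), for 5 classes of peaks and for windows placed along the assembly. Error bars are 95% Wilson intervals. Isolated Myc-only peaks have the tallest bar on the left (53.3%) and the lowest on the right (25.9%).

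Many isolated peaks shared a stretch of sequence with another isolated peak. Peaks sharing at least 30 distinct 31-mers on either strand were joined, so that members of a group may be linked only through other peaks. By this joining, 577 of 2254 (25.6%, 23.8 to 27.4%) fell into 99 groups, of which 73 with 178 peaks lay on 1 chromosome each. Of the Myc-only peaks near Suz12, 4.16% (3.78 to 4.57%) shared sequence in this way, although that set is larger and offers more partners. The largest group held 125 peaks on all 21 chromosomes, 18 of them on chromosome X, all of them mostly soft-masked and scoring between 50.0 and 93.4 (median 58.1). Its peaks were scattered, since 3 of the 125 had another isolated peak within 10000 bp. The next group held 65 peaks on 17 chromosomes, with a median score of 73.9 and a median GC content of 66.5%, and consisted of the triplet run shown above. A pair of peaks from each group is printed with capitals marking bases inside 31-mers that the pair shares, for chr14:68751283-68751567 and chr3:35609771-35609891 in the largest group and chr5:96846886-96847118 and chr19:26074530-26074799 in the triplet group.
Largest group, chromosome 14: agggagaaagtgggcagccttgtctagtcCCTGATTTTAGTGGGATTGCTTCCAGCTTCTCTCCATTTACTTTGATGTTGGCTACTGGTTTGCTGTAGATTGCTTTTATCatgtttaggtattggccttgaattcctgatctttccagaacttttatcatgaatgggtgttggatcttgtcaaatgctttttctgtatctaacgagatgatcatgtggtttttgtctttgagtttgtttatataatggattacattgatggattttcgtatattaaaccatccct
Largest group, chromosome 3: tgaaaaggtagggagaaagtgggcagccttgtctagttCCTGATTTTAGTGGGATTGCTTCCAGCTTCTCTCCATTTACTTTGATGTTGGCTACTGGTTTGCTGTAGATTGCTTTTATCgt
Triplet group, chromosome 5: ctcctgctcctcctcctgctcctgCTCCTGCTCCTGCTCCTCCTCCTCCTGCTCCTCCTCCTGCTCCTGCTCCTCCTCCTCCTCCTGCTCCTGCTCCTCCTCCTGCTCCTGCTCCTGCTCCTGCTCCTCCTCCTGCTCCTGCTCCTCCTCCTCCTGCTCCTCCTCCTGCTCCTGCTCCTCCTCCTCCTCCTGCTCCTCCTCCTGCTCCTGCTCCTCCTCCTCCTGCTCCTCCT
Triplet group, chromosome 19: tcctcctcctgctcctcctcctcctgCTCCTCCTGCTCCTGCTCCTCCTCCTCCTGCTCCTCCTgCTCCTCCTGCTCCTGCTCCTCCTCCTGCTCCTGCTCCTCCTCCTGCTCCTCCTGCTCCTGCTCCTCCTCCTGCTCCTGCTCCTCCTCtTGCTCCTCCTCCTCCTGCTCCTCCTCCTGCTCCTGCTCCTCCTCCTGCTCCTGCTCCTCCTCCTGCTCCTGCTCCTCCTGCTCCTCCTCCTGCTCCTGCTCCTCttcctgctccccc
The first pair shared 81 bases in 1 block, and the second shared most of its length.

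The triplet peaks stood high in the ranking. Of the 79 isolated peaks scoring at least 100, 16 belonged to the triplet group, as did 5 of the 10 highest. The motif CTCCTGCTCCTG, read on either strand, was present in 69 isolated peaks (3.06%, 2.43 to 3.86%), in 6 of 9806 Myc-only peaks near Suz12 (0.0612%), in 25 of 4260 peaks called in both cultures (0.587%) and in 7 of 26476 windows (0.0264%, 0.0128 to 0.0546%). Among isolated peaks scoring at least 100 its share was 21.5% (13.9 to 31.8%). The motif was picked after the sequences had been seen.

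Among the 10 highest-scoring isolated peaks, repeated 31-mers made up more than 50% in 8, beside 53.3% of all isolated peaks. Outside curated genes lay 7 of the 10, close to the 74.1% of all isolated peaks. The first was chr1:85489363-85490649 (score 309), 1287 bp long and 54.2 kb from Gm7592, in which every 31-mer was repeated and the commonest had 5 copies. The second, chr1:85095177-85096056 (score 239), lay in an intron of A530032D15Rik with the same copy number. The first was 16.3 kb from the nearest Suz12 peak and 92.1 kb from the nearest LIF-ESC H3K27me3 peak. For the second these distances were 13.2 and 3.02 kb. These 2 peaks shared at least 30 31-mers with each other and formed a shared-sequence group of their own. Both are in the stretch of chromosome 1 that holds the Sp110 and Sp140 genes, which encode proteins of the Sp100 nuclear body family. Of the Myc-ESC H3K27me3 peaks in these 2 genes, 12 of 17 and 3 of 13 had a LIF-ESC H3K27me3 peak within 1000 bp. The peaks chr9:15233934-15234582 (score 237), chr11:120204467-120204840 (score 206), chr5:96846886-96847118 (score 199), chr8:15259804-15260153 (score 192) and chr18:81402538-81402966 (score 181) were the 5 of the triplet group. They lay at 4.46, 14.6, 0.917, 126 and 414 kb from the nearest curated genes, Vstm5, 2810410L24Rik, Anxa3, Myom2 and Gm27239. The tenth, chr8:20026113-20026555 (score 173), was also repeated throughout.

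The other 2 of the top 10 lay mostly on single-copy sequence and inside genes. The peak chr8:14342355-14342794 (score 188, N = 27) was in an intron of Dlgap2, which encodes a scaffold protein of the postsynaptic density, and 12.9% of its 31-mers were repeated. The peak chr1:46088249-46088621 (score 185) was in an intron of Dnah7b, an axonemal dynein heavy chain gene, with 26.5% repeated. It lay 12.0 kb from the nearest Suz12 peak, whereas the Dlgap2 peak was 244 kb from one.

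Most isolated peaks lay outside annotated genes. Of 2254, 584 (25.9%, 24.1 to 27.8%) overlapped the span of a curated RefSeq gene, against 54.6% (53.6 to 55.6%) of the Myc-only peaks near Suz12, 54.1% (52.6 to 55.6%) of the peaks called in both cultures and 39.3% of the assembled bases. The rule itself removes gene-rich surroundings, so the windows were put through the same distance limits, a comparison added after the values were seen. Of the 23864 windows left, 37.7% (37.0 to 38.3%) overlapped a gene span. Over the whole assembly, without the distance limits, there were 0.561 isolated peaks per Mb inside genes and 1.04 per Mb outside. Of the 584, 530 touched introns alone and 54 touched an exon, so exons held 2.40% (1.84 to 3.11%) of all isolated peaks, beside 4.09% of all windows, 3.36% of the windows left and 2.73% of the assembled bases. Within 2500 bp of a start site were 87 (3.86%, 3.14 to 4.74%), beside 5.19% of all windows and 2.50% (2.31 to 2.70%) of those left, so that the share lay below the first and above the second. Among repeated peaks 22.0% (19.7 to 24.4%) were in genes and among the others 30.4% (27.7 to 33.2%), both below the 37.7% of the windows left. With predicted models and pseudogenes included, 40.1% (38.1 to 42.1%) overlapped a gene, beside 47.0% of the windows and 66.1% of the Myc-only peaks near Suz12.

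The 584 peaks fell in 388 of 26180 genes (1.48%), with 1 peak each in 294 and 2 or more in 94. The 10 genes with most isolated peaks were 1700010N08Rik with 15, Kcnq1 with 10, Gm28453 with 9, Dlgap2 and Pappa with 8 each, Sp140 and Gm32061 with 7 each, and Cma2, Gm7827 and Astn2 with 6 each. In 1700010N08Rik, Gm28453, Sp140 and Gm7827 nearly all the peaks were repeated (15 of 15, 8 of 9, 7 of 7 and 6 of 6). In Pappa, Gm32061, Cma2 and Astn2 none of the 8, 7, 6 and 6 peaks was.

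Kcnq1 encodes a voltage-gated potassium channel, and the noncoding RNA Kcnq1ot1, transcribed antisense from within it, is known for silencing the imprinted domain around it. The 10 isolated peaks of Kcnq1 scored between 53.1 and 105 (median 55.7), and 1 of them was repeated. Of these, 6 lay in a stretch of 15.8 kb starting 96.5 kb from the 5′ end of the gene, with scores of 71.1, 62.9, 53.3, 105, 53.1 and 54.5 in order. The highest, chr7:143208653-143208886, rested on N = 14 reads, and the 2 that touched exons were in exon sequence of Kcnq1ot1. The other 4 scored 56.6, 66.9, 53.5 and 54.8. All 12 Myc-ESC H3K27me3 peaks of the gene span were Myc-only and 2 were near Suz12, although the LIF-ESC list held 4 H3K27me3 peaks in the same span. At 19.7 kb from Ascl2, a neighbouring imprinted gene that encodes a transcription factor of the placenta, lay 6 further isolated peaks at chr7:142939394-142947138. None of them was repeated, and their scores ran from 54.4 to 101. A LIF-ESC H3K27me3 peak was 1.15 kb away and a Suz12 peak 19.9 kb away. This cluster was picked after its values were seen, and the share of isolated peaks at imprinted genes was not computed.

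Dlgap2 held its 8 isolated peaks between 246 and 283 kb from the 5′ end. Their scores were 56.2, 188, 129, 68.0, 56.2, 56.6, 108 and 53.5, and 1 of the 8 was repeated. The gene held 18 Myc-ESC H3K27me3 peaks in all, 4 of them Myc-only and near Suz12 and 4 with a LIF-ESC peak within 1000 bp. Pappa encodes a metalloproteinase that cleaves insulin-like growth factor binding proteins. It held 76 Myc-ESC H3K27me3 peaks in all, 46 of them Myc-only and near Suz12, so that its 8 isolated peaks (scores 51.5 to 83.2) were a small part of a marked gene. The same held for Gm32061, with 25 of 32 peaks Myc-only and near Suz12. In Cma2, a chymase gene of the mast cell protease locus, all 6 Myc-ESC H3K27me3 peaks were isolated. They scored 61.2, 132, 74.9, 102, 62.5 and 87.1, with N of 7, 19, 10, 14, 8 and 11, and no Suz12 peak lay within 165 kb. These were the strongest calls on single-copy sequence among the 10 genes by median score (81.0). Astn2, which encodes a neuronal membrane protein, held 10 Myc-ESC peaks, of which 6 were isolated (58.3 to 76.2) and 4 near Suz12.

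Short lists of core signalling, pluripotency and growth genes, drawn up for this description, held no isolated peak, whereas 6 genes of the study's own broader signalling sets did. The counts for the short lists were 0 of 20 LIF and Jak/Stat3 signalling genes (Wilson upper limit 16.1%), 0 of 26 pluripotency factors (12.9%), 0 of 25 Wnt antagonists (13.3%) and 0 of 22 cell cycle and growth genes (14.9%), beside 1.48% of all genes. These genes are short, with spans of 0.698, 0.708, 0.905 and 0.271 Mb in all. Beside 0.851 isolated peaks per Mb of the assembly, their number says little at these lengths. The rule also leaves out peaks near Suz12 or H3K4me3, so that an absence at genes bearing either follows in part from the selection. Within 50000 bp of the Wnt antagonists lay 21 Myc-only peaks near Suz12 (0.214%, beside 0.125% of the windows) and no isolated peak. The study's own sets have longer spans, 8.71 Mb for Jak-Stat and 22.1 Mb for Wnt. They held 0.344 and 0.317 isolated peaks per Mb, below the 0.561 inside all genes. In the Jak-Stat sets 1 of 194 matched genes (0.515%) held isolated peaks. It was Erbb4, a receptor tyrosine kinase gene, with 3 intronic peaks scoring 54.0, 56.2 and 63.2. In the study's Wnt set 5 of 343 matched genes (1.46%) did, namely Mcc, Prickle1, Prkcb, Tbl1x and Wwox, with 7 peaks scoring from 54.0 to 70.4. Those peaks lay in introns, and the 3 in Tbl1x, which encodes a subunit of the NCoR corepressor complex, were 2.43 to 4.58 kb from a LIF-ESC H3K27me3 peak. Ribosomal protein genes (0 of 90) held none, and clustered protocadherin genes (0 of 58) held none in their own spans. Within 50000 bp of a clustered protocadherin gene, however, lay 6 isolated peaks (0.266%, against 0.0340% of the windows and 1.90% of the Myc-only peaks near Suz12), and none of the 6 was repeated. Isolated peaks were present in 1 of 1125 olfactory receptor genes and 2 of 406 zinc finger protein genes.

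Long neural adhesion and synapse genes held isolated peaks in 23 of 55 cases, at a density below that of the whole assembly. Their spans add up to 58.4 Mb and held 39 isolated peaks, or 0.667 per Mb. This lay above the 0.561 per Mb inside all genes and below the 0.851 per Mb of the whole assembly. All 39 were intronic, 11 were repeated, and the nearest was 15137 bp from its gene's 5′ end, in Ptprd, a receptor phosphatase gene. Csmd1 held 5 peaks (54.4 to 62.7), Ptprd 4 (57.2 to 66.9), Csmd3, Erbb4 and Tenm3 3 each, and the one of these genes to reach a score of 100 was Tenm3 (103), a teneurin gene whose 3 peaks were all repeated.

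Vomeronasal receptor genes, which encode pheromone receptors and lie in arrays that include near-identical copies, had the highest density of isolated peaks among these lists. Isolated peaks were present in 21 of 357 (5.88%, 3.88 to 8.82%), beside 1.48% of all genes. Their density was 10.8 per Mb of span, beside 0.561 inside all genes. All 21 genes have Vmn2r symbols. Of these 21 genes, 18 are on chromosome 7 and held most of the peaks, so the density is largely that of 1 chromosome. All 39 peaks in their spans were repeated, with scores from 52.7 to 90.3, and the gene to which a read belongs is uncertain among such copies. Within 50000 bp of a vomeronasal receptor gene lay 124 isolated peaks (5.50%, 4.63 to 6.52%), against 0.854% of the windows and 0.235% of the Myc-only peaks near Suz12, and 113 of the 124 were repeated.

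The chromosomes were unequally loaded. Over the assembly there were 0.851 isolated peaks per Mb. Chromosome 7 held 340 (2.40 per Mb), chromosome 8 held 237 (1.89 per Mb) and chromosome 14 held 188 (1.55 per Mb), and the other 18 chromosomes lay between 0.409 and 0.980 per Mb. On chromosome 7, 239 of the 340 peaks were repeated (70.3%), and 125 lay between 5 and 10 Mb, where 33 vomeronasal receptor genes are annotated and 119 of the peaks were repeated. Without that stretch, chromosome 7 had 215 peaks at 1.57 per Mb. On chromosome 14, 121 of 188 were repeated, and the first 10 Mb held 48 and 39 isolated peaks in 2 successive stretches of 5 Mb, of which 48 and 38 were repeated.

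Chromosome 8 differed from chromosomes 7 and 14 in that 132 of its 237 isolated peaks were not repeated, at 1.05 per Mb the highest density of such peaks on any chromosome. The other Myc-ESC H3K27me3 peaks were also densest there, at 11.3 per Mb against 5.46 for the assembly, and of 277 isolated LIF-only peaks chromosome 8 held 39, more than any other. Chromosome X held 101 isolated peaks (0.618 per Mb), of which 79 were repeated, which left 22 or 0.135 per Mb. It also held few other Myc-ESC H3K27me3 peaks, at 0.911 per Mb. All 36 peaks on chromosome Y were repeated. Chromosome 11 had the lowest repeated share, with 17 of 82. The 10 fullest of 557 stretches of 5 Mb held 415 isolated peaks (18.4%), and 86 held none. Within 100000 bp of a gap in the assembly lay 5.90% (5.00 to 6.95%) of the isolated peaks. The share was 3.04% among Myc-only peaks near Suz12, 7.07% (6.33 to 7.87%) among peaks called in both cultures and 1.54% among the windows.

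**Figure D4:**
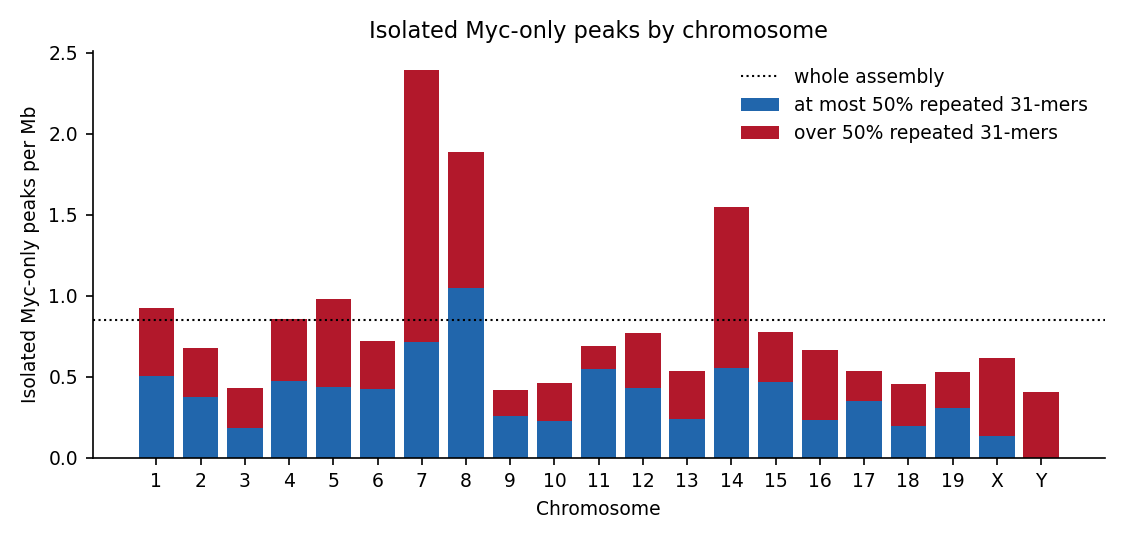
Isolated Myc-only peaks per Mb of assembled sequence (y axis) for each chromosome (x axis), with peaks over 50% repeated in red above those at most 50% repeated in blue, and the value of the whole assembly as a dotted line (0.851). Chromosomes 7 and 14 rise through the red part, while chromosome 8 has the tallest blue part (1.05).

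Most isolated peaks stood alone. With peaks at most 10000 bp apart joined, 1404 of 2254 were single, and 850 (37.7%, 35.7 to 39.7%) formed 281 clusters. The median distance to the next isolated peak was 62.8 kb (quartiles 1.80 and 579 kb). When any Myc-ESC H3K27me3 peak was allowed as a neighbour, 40.4% (38.4 to 42.5%) had one within 10000 bp. Of the Myc-only peaks near Suz12, 90.2% (89.6 to 90.8%) had another of their kind within 10000 bp, and of the isolated LIF-only peaks 8.30% (5.60 to 12.2%), where the differing numbers of peaks enter the comparison. Among repeated isolated peaks 33.7% had another repeated one within 10000 bp, and among the others 36.8%. The 41 clusters of 5 or more peaks held 265 peaks, and in 18 of these clusters, with 115 peaks, the median peak was at most 50% repeated.

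The largest cluster had 14 peaks over 21.1 kb, chr7:38810059-38831191, in an intron of 1700010N08Rik, all of them repeated, with scores from 53.5 to 126. Of its 12 peaks on a line, 7 rested on N = 7. The second, chr8:55345732-55382738, had 11 repeated peaks over 37.0 kb with scores from 51.2 to 89.4. It lay 1.37 kb from a LIF-ESC H3K27me3 peak, near the limit of the rule, though 911 kb from Suz12, and it spans a series of predicted genes with Gm51573 the only curated one. The third, chr7:62519644-62538836, had 9 peaks over 19.2 kb, 4 of them repeated, at 55.1 kb from Peg12, a paternally expressed gene of the imprinted region orthologous to the Prader-Willi region. Its nearest Suz12 peak was 18.2 kb away. The fourth, chr11:31567400-31580677, had 9 peaks over 13.3 kb and none was repeated. Its scores lay between 55.2 and 75.3, and it was 84.5 kb from the nearest curated gene, Bod1, and 195 kb from Suz12. The fifth, chr8:69489495-69499372, had 8 repeated peaks over 9.88 kb with scores from 53.5 to 122, and it lay just inside both limits, 10.4 kb from Suz12 and 1.11 kb from a LIF-ESC H3K27me3 peak.

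**Figure D5:**
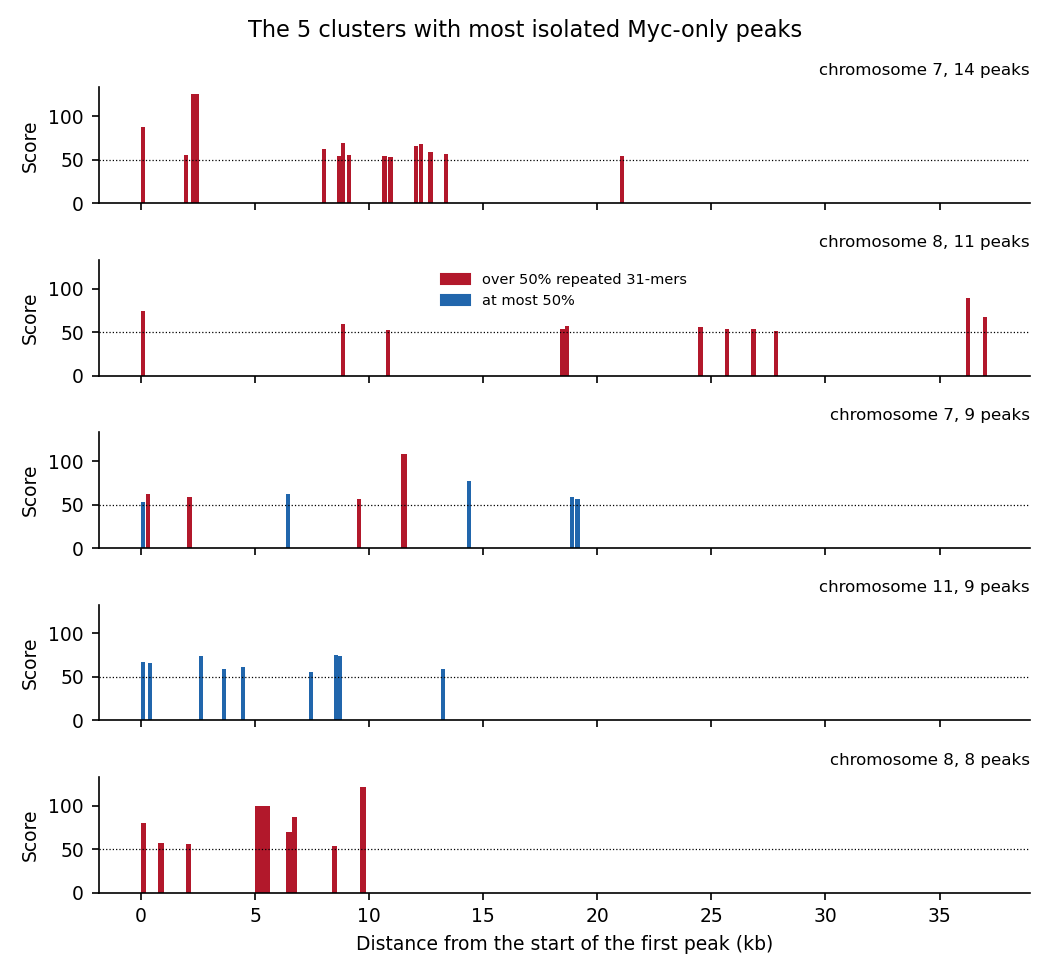
The 5 clusters with most isolated peaks, one panel each, with peaks as bars at their distance from the first peak (x axis, kb) and score as height (y axis). Narrow bars are widened to 0.18 kb to be visible, and the dotted line is the lowest score in the list (50). The peaks are over 50% repeated (red) throughout the clusters on chromosome 8 and the largest on chromosome 7, and at most 50% repeated (blue) throughout the one on chromosome 11.

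Some loose clusters on single-copy sequence were far from Suz12. At chr12:77909254-77916426, 7 peaks none of which was repeated scored from 51.9 to 160 and lay 308 kb from Suz12 and 281 kb from Gm6657, the nearest curated gene. The highest, chr12:77910979-77911285 (score 160), had no 31-mer with a second copy. At chr9:47072489-47080158, 5 peaks scored from 56.7 to 123 at 628 kb from Suz12. By contrast the 8 peaks at chr6:6811810-6829098, in and beside the antisense RNA gene Dlx6os1, scored from 53.1 to 62.7 and lay 19.9 kb from Suz12. That gene held 34 Myc-ESC H3K27me3 peaks, 16 of them with a LIF-ESC peak within 1000 bp and 6 isolated. These loci were picked after their values were seen.

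The distances that the rule limits ranged widely. The nearest Suz12 peak of either culture was at a median of 205 kb (quartiles 54.7 and 572 kb), and 259 isolated peaks (11.5%) had none within 1 Mb. The nearest LIF-ESC H3K27me3 peak was at a median of 470 kb and the nearest H3K4me3 peak at 42.2 kb. Just inside the Suz12 limit was a peak at 10075 bp (score 66.7), and just outside one at 9941 bp (score 58.5). For LIF-ESC H3K27me3 the corresponding peaks were at 1023 bp (score 54.0) and 981 bp (score 50.9), and for H3K4me3 at 1011 bp (score 54.2) and 991 bp (score 64.4). The Suz12 limit alone left out 3677 peaks, the H3K4me3 limit 397 and the LIF-ESC H3K27me3 limit 134.

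With the cultures exchanged, the rule found 277 of 3120 LIF-ESC H3K27me3 peaks, or 8.88% (7.93 to 9.93%), against 13.5% in Myc-ESCs. The lists differ in length, 16717 against 3120 peaks, and a longer list offers more neighbours to the other. When the Myc-ESC list was cut to its 3120 highest-scoring peaks, 64 isolated peaks were left (2.05%), but that cut also raised the lowest Myc-ESC score to 104 while the LIF-ESC list still began at 50. Among peaks scoring at least 100, 79 of 3378 Myc-ESC peaks (2.34%, 1.88 to 2.91%) and 3 of 339 LIF-ESC peaks (0.885%, 0.301 to 2.57%) were isolated. The intervals overlapped. Both cuts left the other culture's H3K27me3 list whole, so the unequal number of neighbours remained.

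The isolated LIF-only peaks resembled the isolated Myc-only peaks in strength and place. Their median score was 60.2 and their median length 151 bp, 27.8% (22.9 to 33.3%) lay in genes, and 46.6% held no CpG. On the lines of their own list, 64.5% (57.0 to 71.3%) rested on at most 8 reads. Repeated sequence was less common among them, at 35.0% (29.6 to 40.8%). At least 30 31-mers were shared with another such peak by 4 of the 277, although this smaller set offers fewer partners. Of the 277, 42 (15.2%, 11.4 to 19.9%) lay within 10000 bp of an isolated Myc-only peak, as did 1.25% of the windows. Of the 388 genes with isolated Myc-only peaks and the 73 with isolated LIF-only peaks, 23 held both, which is 5.93% and 31.5%.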

How the data were processed

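H3K4me3, H3K27me3 and Suz12 were profiled by ChIP-sequencing in 16 libraries, 2 per culture and antibody plus 4 inputs. The authors mapped reads to GRCm38 (Bowtie2 2.2.3 and MACS 1.4.2 are named in the submitters' processing notes), kept unique best matches and deposited 6 peak lists. Each peak has a position and a deposited score, which is 10 times the negative log10 of the caller's p-value. Whether libraries were pooled is not given in the sources used here, and depth is unknown.

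Distances, clusters, gene overlaps and sequence content were computed with Python 3.11.15, pandas 2.3.3, numpy 2.4.6, scipy 1.17.1 and pysam 0.24.0, with code tested on simulated data. Genes were 26180 symbols with 45756 curated RefSeq transcripts. The 95% Wilson intervals cover counting error only and treat peaks as independent. Named were the 10 highest-scoring peaks, the 10 genes and 5 clusters with most peaks (ties by summed score), and listed signalling genes holding a peak. Some further loci were picked after their values were seen. The members and gene lists were chosen with earlier results of these data known. The 31-mer copies, shared-sequence groups, 5 Mb bins, triplet motif, distance-limited windows and score steps were added after the values were seen.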

Additional observations from a re-analysis of the deposited data

How the results depend on the processing

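No replicate lists exist for a culture and antibody, so these values have no replicate error. No paired analysis was possible because each culture and antibody has 1 list and no replicate number. Of 59 values recomputed under 14 alternatives, 33 were classed as unchanged and 26 as moved. Shares were judged by their counting interval, but the number of isolated peaks was given a wider limit. Its values classed as unchanged, beside 2254, were 2523 and 1726 with Suz12 limits of 5000 and 50000 bp. They were 2081 and 1804 with LIF-ESC H3K27me3 and H3K4me3 limits of 10000 bp, and 2479 with overlap instead of 1000 bp. The number thus varied with the distance limits by more than counting error. The repeated-sequence limits and the read-number alternatives were chosen after seeing the data.

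At a score of at least 100, there were 79 isolated peaks, with 27.8% in genes, a median score of 113, 22.8% with another isolated peak within 10000 bp, 2.53% on chromosome X and 59.5% repeated. Among the 3120 highest-scoring peaks these values were 64, 29.7%, 118, 18.8%, 3.12% and 59.4%. With only peaks at most 50% repeated, they were 1053 peaks, 30.4% in genes, a median score of 57.6 and 2.09% on chromosome X. The share with another isolated peak within 10000 bp was 40.6% with a Suz12 limit of 5000 bp, 31.2% with 50000 bp, 34.5% with a LIF-ESC H3K27me3 limit of 10000 bp and 40.4% with an H3K4me3 limit of 10000 bp. A linking distance of 1000 bp gave 20.8% and one of 50000 bp 47.5%. The repeated share was 50.9% with the Suz12 limit of 5000 bp and 65.2% when any repeated 31-mer counted. The share in genes was 40.1% with all RefSeq gene features and 32.5% with flanks of 5000 bp. The causes of these shifts were not tested.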
